A study of Mus musculus with 2 samples.

Results

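*Gadd45a*, *Gadd45g*, *Btg1*, *Btg2*, *Insm1*, *Insm2*, *Sapcd2* and *Mybl1* are 8 of the 28692 genes counted in single cells of the embryonic mouse retina at E14.5, and are described here as genes of the step at which a progenitor leaves the cell cycle as a neuron. They were taken by symbol from the gene list shared by both count matrices, and each symbol matched 1 row. They were put together with earlier results of these data in view and are treated as chosen by their UMI levels in neurogenic cells against progenitors, so these levels are a description and that comparison is not a finding. All 8 had UMIs in both libraries.

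The study sorted dissociated retinas of *LHX4::GFP* mice, strain Tg(Lhx4::EGFP)KN199Gsat/Mmucd, at E14.5 into GFP+ and GFP− cells and made 1 droplet library of each gate. The reporter is a bacterial artificial chromosome insertion carried by heterozygotes, so the GFP− cells carry the same transgene without its signal, and retinas from 2 litters that had been screened for GFP went into a single suspension before sorting. The droplet kit tags the 3′ end of each captured polyadenylated transcript with a unique molecular identifier (UMI), by which PCR copies are counted once, and levels are given as UMIs per 1000000 UMIs (CPM). There were no replicates, so no test was made, and every interval below is an exact 95% interval that covers counting error only.

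A retinal progenitor divides until it turns on neurogenic factors such as *Atoh7*, *Neurog2* or *Olig2*, and it then goes through a last cell cycle and becomes a postmitotic neuron of a given type. The Gadd45 proteins are small stress and growth-arrest proteins that bind cell cycle and DNA repair factors, and *Gadd45g* is known as a neurogenic target of proneural factors. *Btg1* and *Btg2* are antiproliferative proteins that bring the CCR4-NOT deadenylase to messages, and *Btg2* (also called *Tis21*) has long served as a marker of neural progenitors in neurogenic divisions. *Insm1* and *Insm2* are zinc finger repressors of neural and neuroendocrine precursors, *Sapcd2* takes part in the orientation of the mitotic spindle, and *Mybl1* (A-Myb) is a transcription factor of the Myb family.

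The genes lie at 8 separate places of the GRCm38 genome in the GENCODE M21 annotation. *Gadd45a* is at chr6:67035096-67037457 on the minus strand, *Gadd45g* at chr13:51846678-51848468 on the plus strand, *Btg1* at chr10:96617006-96622809 on the plus strand and *Btg2* at chr1:134075170-134079120 on the minus strand. *Insm1* is at chr2:146221921-146225020 and *Sapcd2* at chr2:25372321-25378213, both on the plus strand, *Insm2* at chr12:55599427-55602086 on the plus strand and *Mybl1* at chr1:9667415-9700209 on the minus strand. The bases before the RefSeq start (GRCm38.p6) were found for 6 of the 8 genes, *Insm1* and *Mybl1* being the others. The bases before the start of *Gadd45a* (chr6:67037458-67037657, minus strand), *Gadd45g* (chr13:51846425-51846674, plus strand), *Btg1* (chr10:96616751-96617000, plus strand) and *Btg2* (chr1:134079156-134079405, minus strand) are shown, since the members of each of these 2 pairs of relatives took different courses after the neurogenic stage. Each runs 5′ to 3′ on the gene's strand over 250 bases, or 200 bases for *Gadd45a*, whose last 50 bases lie in the GENCODE gene and are left off. Capitals mark matches, on either strand, to the E-boxes CAGCTG and CAGATG, to the CCAAT box, to TTTGAA as in the cell cycle homology region, to the cAMP response element TGACGTCA and to GTGGGAA as bound by *Rbpj*.
Gadd45a: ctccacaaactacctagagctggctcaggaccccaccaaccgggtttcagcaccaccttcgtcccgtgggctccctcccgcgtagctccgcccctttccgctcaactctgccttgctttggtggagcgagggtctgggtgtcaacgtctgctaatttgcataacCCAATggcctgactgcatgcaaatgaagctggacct
Gadd45g: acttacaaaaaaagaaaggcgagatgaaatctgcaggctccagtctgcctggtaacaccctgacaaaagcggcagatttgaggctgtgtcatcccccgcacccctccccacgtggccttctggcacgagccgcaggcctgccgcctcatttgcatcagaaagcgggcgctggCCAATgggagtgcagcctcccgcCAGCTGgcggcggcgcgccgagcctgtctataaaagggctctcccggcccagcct
Btg1: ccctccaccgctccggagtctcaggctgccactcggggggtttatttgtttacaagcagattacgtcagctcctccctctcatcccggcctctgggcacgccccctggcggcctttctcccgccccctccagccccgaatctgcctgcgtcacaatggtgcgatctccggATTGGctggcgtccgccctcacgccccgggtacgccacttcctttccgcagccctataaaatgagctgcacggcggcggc
Btg2: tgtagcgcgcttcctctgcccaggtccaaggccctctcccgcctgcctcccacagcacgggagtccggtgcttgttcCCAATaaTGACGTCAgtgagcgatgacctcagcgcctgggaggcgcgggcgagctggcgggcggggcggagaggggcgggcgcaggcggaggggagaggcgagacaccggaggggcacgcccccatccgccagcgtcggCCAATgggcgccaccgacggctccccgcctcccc
All 4 held CCAAT, which 33.8% of the 32851 promoters of that table held within the same 250 bases. It ended 82 bases before the start of *Gadd45a*, 74 bases before that of *Gadd45g* and 169 and 30 bases before that of *Btg2*, and in *Btg1* it lay on the other strand (ATTGG), 80 to 76 bases before the start. The E-box CAGCTG, a form that basic helix-loop-helix factors are known to bind and that 13.0% of promoters held, was found, of the 6, upstream of *Gadd45g*, at 55 to 50 bases, and CAGATG (14.4% of promoters) in none of the 6. TGACGTCA lay 166 to 159 bases before the start of *Btg2* and in 1.55% of promoters. The 6 windows held no TTTGAA (16.0%) and no GTGGGAA (5.42%), and those of *Insm2* and *Sapcd2* held none of the 6 motifs, whose GENCODE starts lie downstream of the RefSeq starts used for them. A match is a description of letters and not a site of binding.

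Cells with 250 to 3500 genes were kept, which left 15503658 UMIs in 3689 GFP+ cells and 30094636 UMIs in 3389 GFP− cells. The median cell had 3894 and 8848 UMIs, respectively. As GFP− cells were deeper, shares of cells with a UMI are given after each cell was thinned to 3200 UMIs, which left out 579 GFP+ and 28 GFP− cells. A list of 7 cone genes stood at 4190 CPM in the GFP+ and 31.6 CPM in the GFP− library, with all 7 detected in the former. Lists for microglia, vessel, erythroid, pigment epithelial, lens, astrocyte and mesenchymal cells stood between 0.0645 and 64.0 CPM in both, with vessel genes the highest in the GFP− library and microglia genes, at 26.8 CPM, the highest in the GFP+ library. Both libraries held 20 of the same barcodes, 15 of them kept in both, and leaving these cells out changed no call of the 8 genes.

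Each GFP− cell was placed by the UMIs of marker genes, none of which is among the 8. Cells with 2 or more UMIs of ganglion cell genes (*Pou4f2*, *Pou4f1*, *Isl1*, *Rbpms*), of amacrine and horizontal genes (*Ptf1a*, *Tfap2a*, *Tfap2b*) or of photoreceptor genes (*Crx*, *Gngt2*, *Thrb*, *Prdm1*) were put in that lineage, and 31 cells that met this for more than 1 lineage were left out. Of the others, those with 2 or more UMIs of *Atoh7*, *Neurog2* or *Olig2* were called neurogenic, and those with none of these and 3 or more UMIs of a list of 5 progenitor genes, which include *Sfrp2*, *Fgf15*, *Hes1* and *Nr2e1*, were called progenitors. Both were divided by 5 or more UMIs of 14 mitotic genes (G2/M), else of 14 replication genes (S), and cells with fewer than 5 of either are named without cycle UMIs. This gave 549 progenitors in S and 730 in G2/M, and 158 neurogenic cells in S, 403 in G2/M and 80 without cycle UMIs. Ganglion cell lineage cells were early with 2 or more neurogenic UMIs (243 cells) and late with fewer (277 cells), and 391 cells were in the amacrine and horizontal and 156 in the photoreceptor lineage. These 9 stages held 88.1% of the GFP− cells. Progenitor genes stood at 672 CPM in late and 309 CPM in early ganglion cell lineage cells, against 4768 CPM in progenitors. Of late and early cells 23.8% and 23.0% had 3 or more progenitor UMIs, and 23.1% and 34.6% had cycle UMIs. The late class is thus not free of progenitor or cycle transcripts. In the GFP+ library 3600 of the 3689 cells were of the photoreceptor class. The order of the stages is that of the markers and not of time, all of them come from 1 library, and more RNA of a gene per cell cannot be told apart from less of all other RNA in a CPM.

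**Figure D1:**
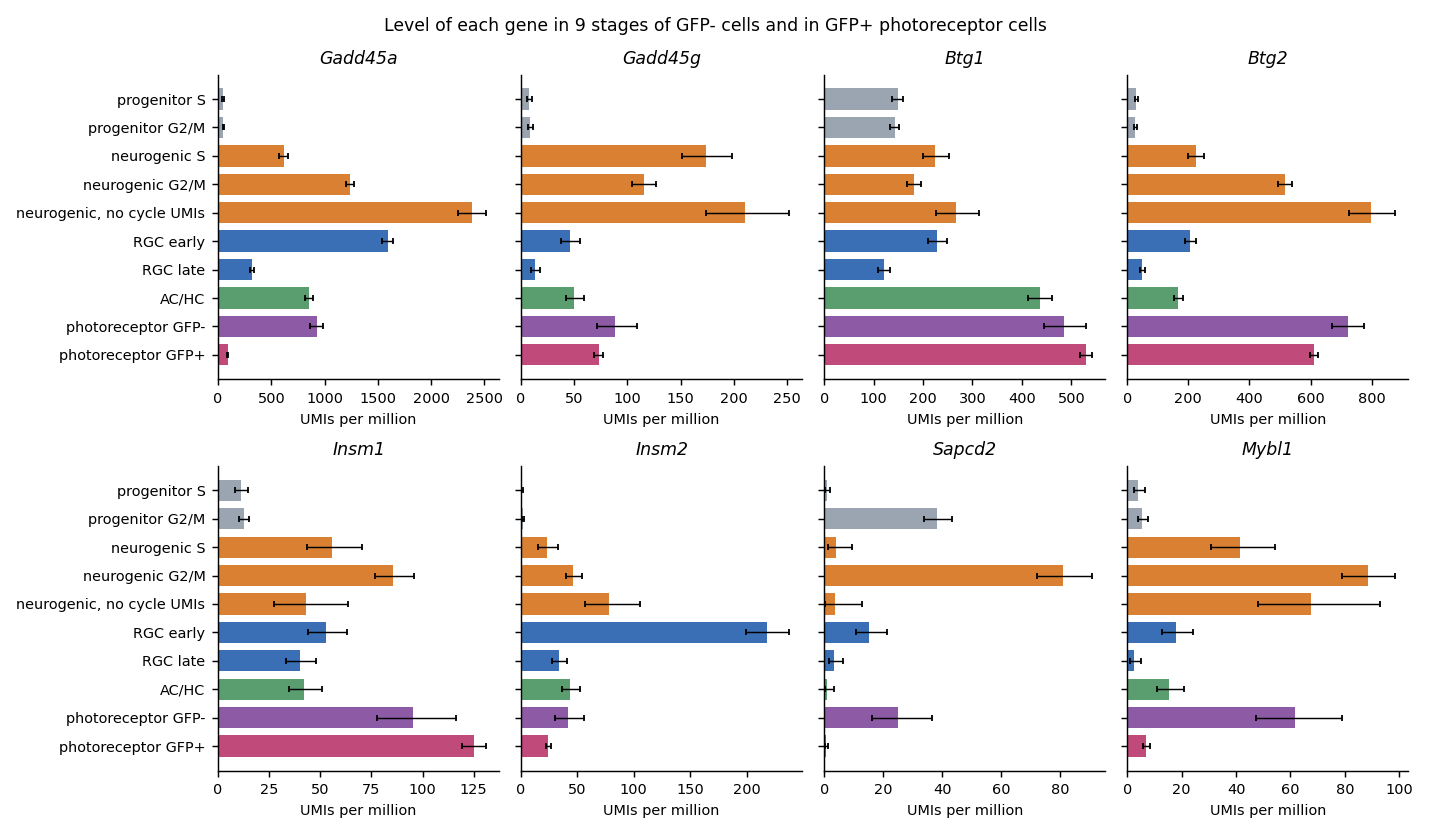
Level of each gene, in CPM on a linear axis from 0 that differs between genes, in the 9 stages of GFP− cells and in the GFP+ photoreceptor class; bars are summed UMIs per 1000000 and error bars exact 95% Poisson intervals. *Gadd45a* is highest in neurogenic cells without cycle UMIs (2381 CPM), *Insm2* in early ganglion cell lineage cells (218 CPM) and *Sapcd2* in neurogenic cells in G2/M (81.1 CPM).

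*Gadd45a* was low in progenitors and highest in the neurogenic cells without cycle UMIs. Its level was 47.1 CPM in progenitors in S and 51.2 in G2/M, then 616 CPM in neurogenic cells in S, 1236 in G2/M and 2381 (2255 to 2512) without cycle UMIs. Early ganglion cell lineage cells stood at 1592 CPM and late ones at 316 CPM, with the amacrine and horizontal lineage at 853, the photoreceptor lineage at 925 and the GFP+ photoreceptor class at 91.9 CPM. The order was thus neurogenic without cycle UMIs, early ganglion cell lineage, neurogenic G2/M, photoreceptor, amacrine and horizontal, neurogenic S and late ganglion cell lineage, with the progenitors last. Only the progenitors in G2/M and in S, the lowest neighbours in that order, were not separated by their counts. At 3200 UMIs per cell, 91.1% of neurogenic cells without cycle UMIs and 85.2% of early ganglion cell lineage cells had a *Gadd45a* UMI, against 13.9% of progenitors in S and 14.03% in G2/M. Without thinning, 5 or more UMIs were found in 80.0% of the neurogenic cells without cycle UMIs and in 0.546% of progenitors in S, and the highest count in a cell was 62, in the early ganglion cell lineage.

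*Gadd45g*, the relative of *Gadd45a* that acts in neurogenesis in other vertebrates, was highest in the neurogenic stages. Its level was 7.47 and 8.69 CPM in progenitors in S and G2/M, 174 CPM in neurogenic cells in S, 115 in G2/M and 210 (174 to 252) without cycle UMIs. The first and second in order, neurogenic cells without cycle UMIs and in S, were not separated (ratio 1.21, 0.958 to 1.52). It stood at 46.0 CPM in early and 13.0 in late ganglion cell lineage cells, 49.9 in the amacrine and horizontal lineage, 88.7 in the photoreceptor lineage and 73.0 in the GFP+ photoreceptor class. Late ganglion cell lineage cells were not separated from progenitors in G2/M. The pair also differed within the neurogenic cycle, since G2/M over S was 2.01 for *Gadd45a* and 0.662 (0.562 to 0.783) for *Gadd45g*. At equal depth *Gadd45g* UMIs were in 31.2% of neurogenic cells in S, 21.9% in G2/M and 27.8% without cycle UMIs, and in 2.56% and 1.65% of progenitors in S and G2/M.

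*Btg2* was low in progenitors, at 29.9 CPM in S and 26.9 in G2/M, and stood at 225 CPM in neurogenic cells in S, 515 in G2/M and 799 (726 to 876) without cycle UMIs. It was also high in photoreceptors, at 722 CPM in the GFP− lineage and 611 CPM in the GFP+ class. The neurogenic cells without cycle UMIs and the GFP− photoreceptor lineage were not separated (1.11, 0.981 to 1.24). Neurogenic cells in S and early ganglion cell lineage cells were not separated, nor were the progenitor stages. The other lineages had lower levels, 205 CPM in early and 49.8 in late ganglion cell lineage cells and 167 in the amacrine and horizontal lineage. Equal-depth shares ran the same way, from 8.23% and 7.70% of progenitors in S and G2/M to 74.7% of neurogenic cells without cycle UMIs and 80.7% of GFP− photoreceptor lineage cells.

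*Btg1*, the closest relative of *Btg2*, was found in every stage, progenitors included, and had its highest level in neurons. It stood at 149 and 143 CPM in progenitors in S and G2/M, 225, 182 and 267 CPM in neurogenic cells in S, in G2/M and without cycle UMIs, and 229 and 120 CPM in early and late ganglion cell lineage cells. Its levels were 436 CPM in the amacrine and horizontal lineage, 486 (444 to 530) in the GFP− photoreceptor lineage and 530 in the GFP+ photoreceptor class. Neurogenic cells without cycle UMIs, early ganglion cell lineage cells and neurogenic cells in S, in that order, were not separated from their neighbours among them, and neither were both progenitor stages. The late ganglion cell lineage was the lowest of the 9 stages, below progenitors in G2/M (1.19, 1.05 to 1.34, in the order progenitor over late). The 2 listed pseudogenes *Btg1-ps1* and *Btg1-ps2* had 0 UMIs in every class.

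*Insm1* and *Insm2* differed in where they were highest. *Insm1* stood at 11.2 and 12.5 CPM in progenitors in S and G2/M, 55.6, 85.7 and 42.8 CPM in neurogenic cells in S, in G2/M and without cycle UMIs, and 95.4 (77.6 to 116) in the GFP− photoreceptor lineage, with 125 CPM in the GFP+ photoreceptor class. The photoreceptor lineage was not separated from neurogenic cells in G2/M (1.11, 0.880 to 1.40). *Insm1* was at 52.9 and 39.9 CPM in early and late ganglion cell lineage cells and 42.2 in the amacrine and horizontal lineage, and no 2 neighbours from the third to the seventh in its order were separated. *Insm2* was at or below 1.26 CPM in progenitors, at 23.0, 46.3 and 78.4 CPM in neurogenic cells in S, in G2/M and without cycle UMIs, and at 218 (199 to 238) in early ganglion cell lineage cells, 2.78 (2.04 to 3.87) times the next stage in order. Late ganglion cell lineage cells had 33.4 CPM, the amacrine and horizontal lineage 43.7, the photoreceptor lineage 41.5 and the GFP+ photoreceptor class 24.2 CPM. At equal depth 35.4% of early ganglion cell lineage cells had an *Insm2* UMI and 0 of 547 progenitors in S did, which at that depth allows a share of cells with a UMI of up to 0.672% by exact Clopper-Pearson limits. Before thinning 3 of 549 progenitors in S (0.546%) had one.

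*Sapcd2* was higher in G2/M than in S in both progenitors and neurogenic cells. It stood at 0.830 CPM in progenitors in S and 38.4 in G2/M, and at 3.97 CPM in neurogenic cells in S, 81.1 (72.2 to 90.8) in G2/M and 3.56 without cycle UMIs, the last from 2 UMIs. Neurogenic cells in G2/M had 2.11 (1.79 to 2.50) times the level of progenitors in G2/M, the next in order. The 14 mitotic genes were also higher in these neurogenic cells, at 3589 against 2632 CPM, and the part of this in the ratio was not tested. Of the lineages, the GFP− photoreceptor cells had 25.1 CPM, early and late ganglion cell lineage cells 15.3 and 3.41 CPM and the amacrine and horizontal lineage 1.10 CPM. *Mybl1* stood at 4.15 and 5.47 CPM in progenitors in S and G2/M and was also highest in neurogenic cells in G2/M, at 88.3 CPM (79.0 to 98.4). It did not separate these from neurogenic cells without cycle UMIs, at 67.7 CPM (ratio 1.30, 0.930 to 1.88), nor the latter from the GFP− photoreceptor lineage, at 61.7 CPM. Neurogenic cells in S had 41.3 CPM, early and late ganglion cell lineage cells 17.9 and 2.39 CPM, the amacrine and horizontal lineage 15.4 CPM and the GFP+ photoreceptor class 7.004 CPM. At equal depth *Sapcd2* UMIs were in 18.7% of neurogenic and 10.3% of progenitor cells in G2/M, against 0.366% of progenitors in S and 0.165% of the GFP+ photoreceptor class, and *Mybl1* UMIs in 21.9% of neurogenic cells in G2/M against 1.46% of progenitors in S.

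**Figure D2:**
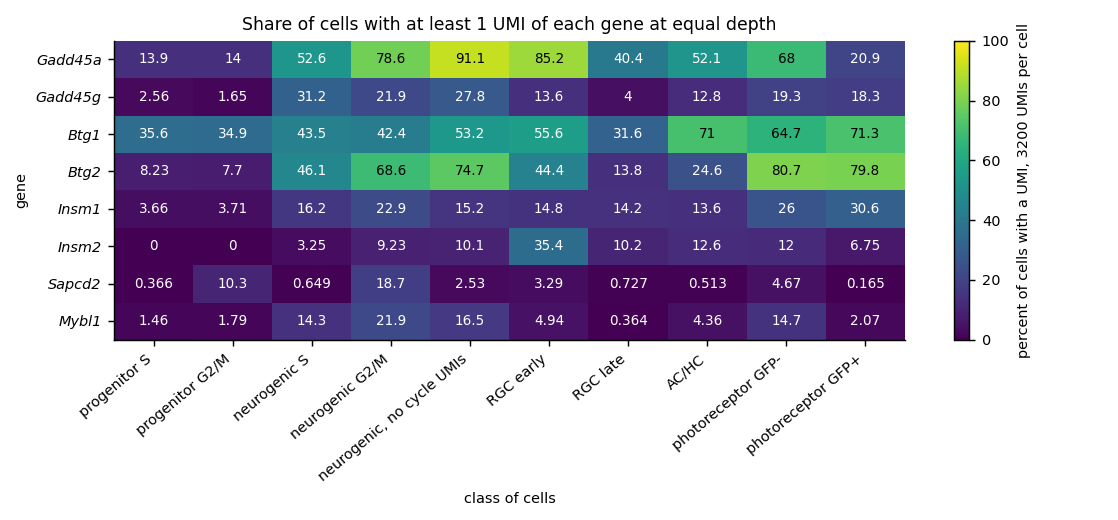
Heat map of the share of cells, in percent, with at least 1 UMI of each gene after every cell was thinned to 3200 UMIs, in the 9 stages of GFP− cells and the GFP+ photoreceptor class; the number in each field is the share. *Gadd45a* is found in 91.1% of neurogenic cells without cycle UMIs, and *Btg1* and *Btg2* are found in 71.3% and 79.8% of the GFP+ photoreceptor class.

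A gene was called higher or lower in a comparison where its CPM ratio was at least 2, or at most its inverse, with the whole interval on that side of 1, among genes with at least 10 CPM in either group. For neurogenic cells over progenitors 2.95% of 8027 genes were called higher and 2.34% lower, and 7 of the 8 genes were called higher, from which nothing is read since this contrast bears on their choice. The ratio was 41.7 (23.9 to 79.5) for *Insm2*, from 245 and 13 UMIs, 23.0 (21.2 to 25.0) for *Gadd45a*, 16.4 (14.7 to 18.4) for *Btg2* and 16.3 (13.3 to 20.2) for *Gadd45g*. It was 14.9 (11.4 to 19.8) for *Mybl1*, 6.12 (5.06 to 7.43) for *Insm1* and 2.45 (2.08 to 2.89) for *Sapcd2*, and 1.37 (1.27 to 1.47) for *Btg1*, the one member short of the limit. Compared within a cycle phase, the neurogenic over progenitor ratio in S was 13.1 for *Gadd45a*, 23.3 for *Gadd45g*, 7.53 for *Btg2*, 4.97 for *Insm1*, 9.96 for *Mybl1*, 1.51 for *Btg1*, 37.0 for *Insm2* (from 29 and 3 UMIs) and 4.79 for *Sapcd2* (from 5 and 4 UMIs). In G2/M it was 24.2 for *Gadd45a*, 13.3 for *Gadd45g*, 19.1 for *Btg2*, 6.87 for *Insm1*, 16.2 for *Mybl1*, 1.27 for *Btg1*, 36.7 for *Insm2* and 2.11 for *Sapcd2*. The G2/M classes were not matched in mitotic genes, which stood at 3589 CPM in neurogenic cells and 2632 CPM in progenitors.

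The classes G2/M and S were compared within progenitors, where 2.93% of 7951 genes were called higher in G2/M than in S and 0.277% lower. Mitotic genes stood at 2632 CPM in G2/M and 182 in S, but replication genes at 1686 and 2001 CPM. The classes thus differ mainly in mitotic transcripts, and also in depth, with medians of 9912.5 and 8711 UMIs per cell. Of the 8 genes 5 passed the limit of 10 CPM and 1 was called, *Sapcd2*, with 274 against 4 UMIs and a ratio of 46.3 (17.9 to 171). The others were 1.09 (0.918 to 1.29) for *Gadd45a*, 0.959 (0.871 to 1.06) for *Btg1*, 0.901 (0.722 to 1.13) for *Btg2* and 1.11 (0.785 to 1.59) for *Insm1*, with all 4 intervals holding 1. *Gadd45g*, *Insm2* and *Mybl1* were under 10 CPM in both phases.

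Neurogenic cells without cycle UMIs were then compared with those that had them, which sets cells with few cycle transcripts beside cycling cells of the same class. Over 8308 genes 7.07% were called higher and 8.35% lower, with a median log2 ratio of 0.12. With scaling by trimmed means (TMM) the split was 4.61% and 10.7%. *Gadd45a* was called higher, at 2381 against 1079 CPM (2.21, 2.08 to 2.34), and *Sapcd2* lower, at 0.0579 (0.00698 to 0.211). The other 6 were not called, though *Insm1* was called lower with TMM factors. *Insm2* was at 1.94 (1.37 to 2.70), *Btg2* at 1.81 (1.63 to 2.00), *Gadd45g* at 1.62 (1.32 to 1.97) and *Btg1* at 1.39 (1.16 to 1.65), all with intervals above 1. *Mybl1* was at 0.886 (0.617 to 1.24), and *Insm1*, at 0.548 (0.347 to 0.828), was the member other than *Sapcd2* with an interval below 1. The *Gadd45a* call was lost with TMM factors, with markers at 3 or more UMIs, with cycle UMIs at 10 or more and in cells classed after thinning, with a log2 ratio between 0.48 and 0.97 there against 1.14. The class without cycle UMIs had 80 cells and a median of 6831.5 UMIs per cell, against 8713 in the other.

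**Figure D3:**
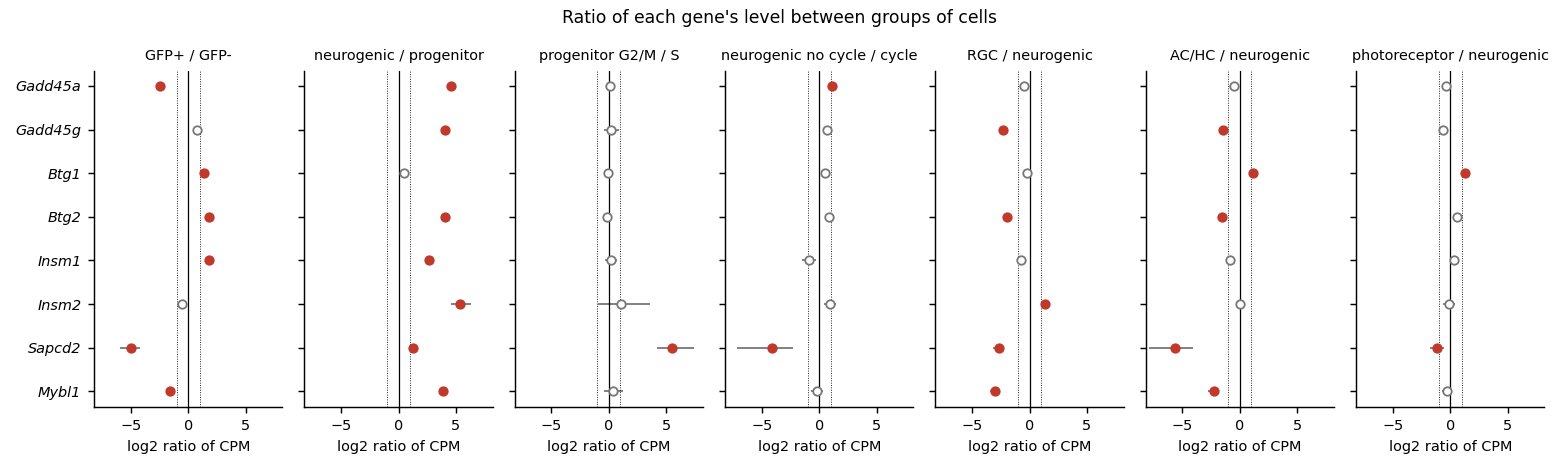
Log2 ratio of each gene in 7 comparisons, with exact 95% counting intervals as bars; red points are past 2-fold with the interval on that side of 0, open points are not, and dotted lines mark ratios of 2 and its inverse. In the ganglion cell and in the amacrine and horizontal lineage over neurogenic cells, *Gadd45g*, *Btg2*, *Sapcd2* and *Mybl1* lie to the lower side, which the choice of the genes by their neurogenic levels favours.

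The 3 lineages were each compared with the neurogenic cells, which they share as the denominator, so that their ratios are not independent. The 8 genes are treated as chosen by their levels in these same neurogenic cells, which favours ratios below 1. Calls of lower genes are thus a description, and the shares of all genes beside them are no fair background. In the ganglion cell lineage, where 12.6% of 8411 genes were called higher and 11.3% lower, *Insm2* was called higher (2.60, 2.24 to 3.03) and 4 genes lower. These were *Btg2* (0.249, 0.228 to 0.272), *Gadd45g* (0.200, 0.166 to 0.239), *Sapcd2* (0.156, 0.112 to 0.214) and *Mybl1* (0.123, 0.0894 to 0.165). *Gadd45a* was at 0.729, *Btg1* at 0.842 and *Insm1* at 0.613, and these were not called. Without the upper limit on genes *Gadd45a* and *Insm1* were called lower. That limit took out 450 late and 114 early ganglion cell lineage cells, and 277 late and 243 early cells were kept. It thus changed the mix of early and late cells in this lineage. The part of this change in the ratios was not tested. Early over late cells of that lineage gave 6.52 (5.24 to 8.18) for *Insm2*, 5.03 (4.68 to 5.41) for *Gadd45a*, 4.13 for *Btg2* and 1.33 for *Insm1*, so all of these were higher where neurogenic UMIs were present. Early and late are divided by the UMIs that define the neurogenic class, so nothing is read from this. Early ganglion cell lineage over neurogenic cells was 4.92 (4.22 to 5.75) for *Insm2*. The *Insm2* call rests on the early cells, since leaving out lineage cells with 2 or more neurogenic UMIs, an alternative chosen after seeing the data, gave a ratio of 0.754, on the other side of 1. The call was also lost without the upper limit on genes, with markers at 3 or more UMIs and in cells classed after thinning.

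In the amacrine and horizontal lineage 16.5% of 8597 genes were called higher and 11.5% lower, or 12.6% and 14.2% with TMM factors. *Btg1* was called higher (2.18, 2.00 to 2.36) and *Gadd45g* (0.361, 0.299 to 0.434), *Btg2* (0.350, 0.316 to 0.386), *Mybl1* (0.204, 0.145 to 0.281) and *Sapcd2* (0.0198, 0.00406 to 0.0583, from 3 UMIs) lower. With TMM factors the *Btg1* ratio was 1.92 and not called, and *Insm1* was called lower. The *Btg2* call was lost with markers at 1 or more UMIs (0.584). The 3 vessel genes listed, all detected, stood at 262 CPM in this class and 33.4 CPM in neurogenic cells, and 23.3% and 0.936% of cells had 3 or more of their UMIs. Leaving out the lineage cells with 3 or more vessel UMIs, an alternative chosen after seeing the data, the same 5 genes were called in the same directions. *Gadd45a* was at 0.704, *Insm1* at 0.567 and *Insm2* at 0.986 (0.786 to 1.23). In the GFP− photoreceptor lineage 12.3% of 8525 genes were called higher and 7.47% lower, or 8.15% and 10.8% with TMM factors. *Btg1* was called higher there too (2.43, 2.18 to 2.70) and *Sapcd2* lower (0.450, 0.289 to 0.673), both lost with markers at 1 or more UMIs. *Btg2* was at 1.51 (1.39 to 1.64), *Insm1* at 1.28 (1.02 to 1.60), *Insm2* at 0.936, *Mybl1* at 0.817 (0.618 to 1.06), *Gadd45a* at 0.763 and *Gadd45g* at 0.641. In all, 5 of the 8 genes were called in the ganglion cell and in the amacrine and horizontal lineage and 2 in the photoreceptor lineage. Nothing is read from these counts, since the choice of the genes bears on the denominator, and no test sets 1 lineage against another.

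The cells of a lineage were divided by neurogenic UMIs or by cycle UMIs, a division chosen after the data were seen. Neurogenic UMIs also define the class by which the 8 genes are treated as chosen. Higher levels in cells that have them restate that choice, so these levels are a description, here and in the GFP+ class. Of the amacrine and horizontal cells 99 (25.3%) had 2 or more neurogenic UMIs, and in these *Gadd45a* was at 1830 CPM, *Btg2* at 416 and *Insm2* at 111 CPM. In the 292 cells with fewer the same genes were at 502, 77.3 and 19.5 CPM, while *Btg1* was higher there, at 465 against 355 CPM. Of the GFP− photoreceptor cells 80 (51.3%) had 2 or more neurogenic UMIs, with *Gadd45a* at 1335 CPM, *Gadd45g* at 122, *Mybl1* at 82.5 and *Sapcd2* at 41.3 CPM. The 76 cells with fewer had 348, 41.7, 32.5 and 2.32 CPM. *Btg1* was at 330 CPM in the former and 705 CPM in the latter, whereas *Btg2* was at 815 and 591 CPM, in the same direction as *Gadd45a*. Without the cells that had 2 or more neurogenic UMIs *Gadd45a* was at 0.287 of the neurogenic level in the photoreceptor lineage, 0.414 in the amacrine and horizontal lineage and 0.261 in the ganglion cell lineage, and was called lower in each. *Sapcd2* went with cycle UMIs in 2 of these classes. It was at 81.3 CPM in the 35 GFP− photoreceptor cells with them and 1.37 CPM in the 121 without, and at 39.3 against 2.61 CPM in 84 and 159 early ganglion cell lineage cells. With and without cycle UMIs it had 5 and 5 UMIs in late ganglion cell lineage cells (7.43 and 2.21 CPM). It had 1 and 2 UMIs in the amacrine and horizontal lineage and 0 and 9 UMIs in the GFP+ photoreceptor class. The intervals of these classes overlapped. In the early ganglion cell lineage *Insm2* was at 280 CPM with and 185 CPM without cycle UMIs, and *Mybl1* at 33.1 and 9.80 CPM.

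**Figure D4:**
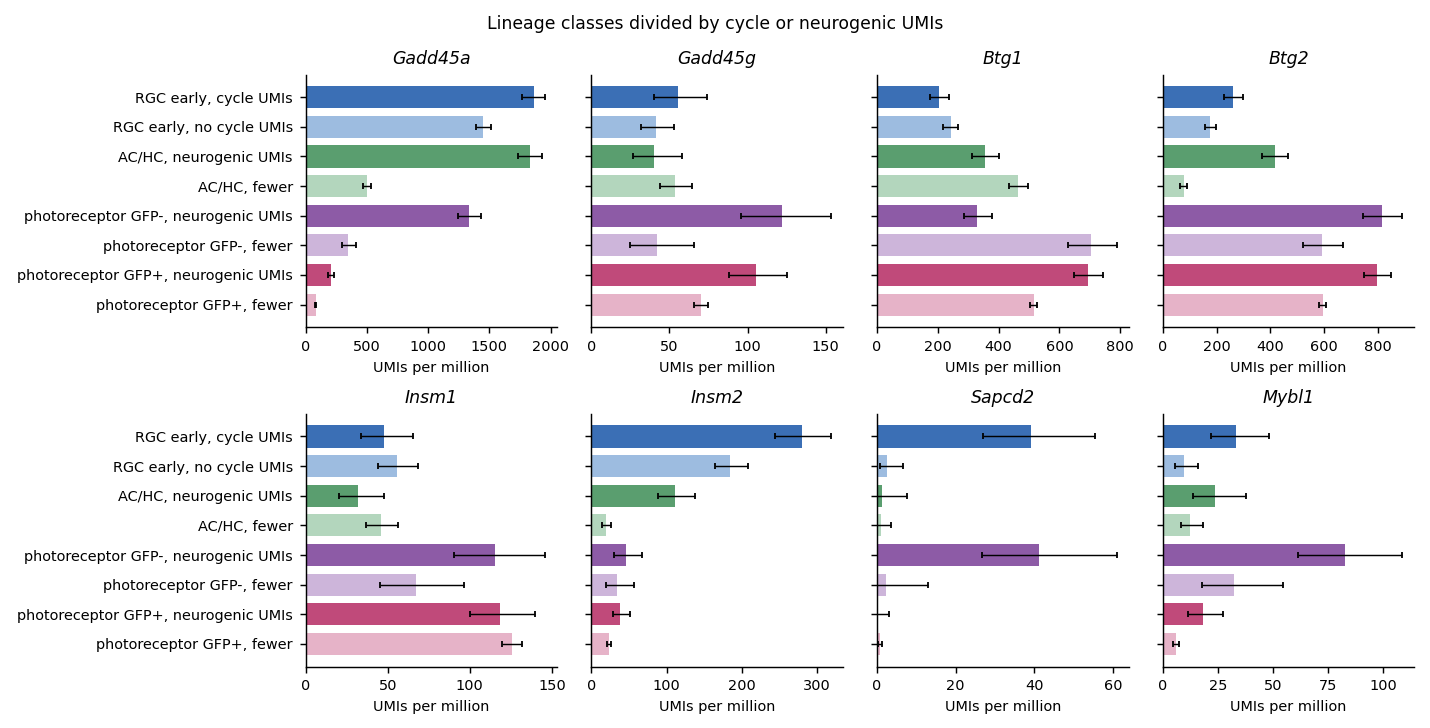
CPM of each gene in cells of each lineage class divided by cycle UMIs or by neurogenic UMIs, a division chosen after the data were seen, with exact 95% Poisson intervals. *Gadd45a* in the amacrine and horizontal lineage stands at 1830 CPM with 2 or more neurogenic UMIs and at 502 CPM with fewer, and *Btg1* at 355 and 465 CPM.

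The GFP gates were compared over all kept cells. In GFP+ over GFP− 20.9% of 9271 genes were called higher and 10.3% lower, and the median log2 ratio of all genes was 0.35. With TMM factors the split was 13.0% and 15.6%. *Btg2* (598 against 169 CPM, ratio 3.54, 3.42 to 3.66), *Insm1* (124 against 36.2 CPM, 3.43, 3.18 to 3.70) and *Btg1* (522 against 203 CPM, 2.58, 2.49 to 2.66) were called higher. *Gadd45a* (97.9 against 532 CPM, 0.184, 0.175 to 0.194), *Mybl1* (7.16 against 22.2 CPM, 0.323, 0.261 to 0.395) and *Sapcd2* (0.774 against 24.7 CPM, 0.0314, 0.0161 to 0.0552, from 12 and 742 UMIs) were called lower. *Gadd45g* (73.8 against 43.9 CPM, 1.68, 1.55 to 1.82) and *Insm2* (24.6 against 35.3 CPM, 0.696, 0.617 to 0.783) were not called. Less the median of all genes, the log2 ratios were 1.48 for *Btg2*, 1.43 for *Insm1*, 1.02 for *Btg1* and 0.40 for *Gadd45g*, and −0.87 for *Insm2*, −1.98 for *Mybl1*, −2.79 for *Gadd45a* and −5.34 for *Sapcd2*, and the same 6 genes lay past 2-fold. At equal depth 78.7% of GFP+ and 27.9% of GFP− cells had a *Btg2* UMI, 70.9% and 44.1% a *Btg1* UMI, 30.5% and 11.2% an *Insm1* UMI and 21.2% and 40.7% a *Gadd45a* UMI. Mean UMIs per cell, which are not scaled to the total, differed less for the higher genes, with GFP+ over GFP− ratios of 1.68 for *Btg2*, 1.62 for *Insm1*, 1.22 for *Btg1* and 0.796 for *Gadd45g*. As the GFP− gate is a mixture and the GFP+ gate nearly all photoreceptor class, the makeup of the gates and levels within a cell type cannot be told apart in these sums.

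Within the photoreceptor class the gates could be set side by side. GFP+ over GFP− was 1.09 (0.996 to 1.20) for *Btg1*, 0.847 for *Btg2*, 0.823 (0.665 to 1.03) for *Gadd45g*, 1.31 (1.07 to 1.62) for *Insm1* and 0.584 for *Insm2*. It was 0.0994 (0.0915 to 0.108) for *Gadd45a* and 0.114 (0.0824 to 0.157) for *Mybl1*, so these 2 differed most after *Sapcd2*, which was at 0.600 against 25.1 CPM. By mean UMIs per cell, not scaled to the total, the ratio was 0.683 for *Btg1*, 0.821 for *Insm1*, 0.530 for *Btg2* and 0.515 for *Gadd45g*. *Btg1* and *Insm1* thus lay on the other side of 1. The GFP− photoreceptor cells held the larger share with 2 or more neurogenic UMIs, 51.3% against 6.08% of the GFP+ class. They also held more cells with cycle UMIs, 22.4% against 1.97%, and stood at 1249 against 50.9 CPM of mitotic genes and 728 against 4283 CPM of cone genes. The part of these differences in the ratios was not tested. Among GFP+ cells the 219 with 2 or more neurogenic UMIs had 205 CPM of *Gadd45a* against 81.9 in the other 3381. They had 797 against 595 CPM of *Btg2*, 693 against 515 of *Btg1* and 119 against 126 of *Insm1*. In the GFP− photoreceptor cells with fewer neurogenic UMIs *Gadd45a* was at 348 CPM.

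A further ordering used none of the markers by which cells were placed in stages. GFP− cells were put in 10 bins of 339 cells (338 in the last) by the share of UMIs from 10 pan-neuronal genes such as *Tubb3* and *Stmn2*. The list held *Gap43*, a ganglion cell marker in the paper. It stood at 16561 CPM in late ganglion cell lineage cells, 8084 in the amacrine and horizontal and 2943 in the photoreceptor lineage. The bins thus sort cells by lineage as well. *Gadd45a* was at 136 CPM in the first bin, 1506 in the seventh, 1844 in the eighth and 286 CPM in the last. *Gadd45g* (128 CPM), *Btg2* (564), *Insm1* (73.8), *Sapcd2* (61.1) and *Mybl1* (66.8) were highest in the seventh bin, of which 50.7% was of the neurogenic class. *Insm2* (156 CPM) was highest in the eighth and *Btg1* (384 CPM) in the ninth. *Sapcd2* was at 7.94 CPM in the eighth bin and 0.768 in the ninth, low in the bin in which *Gadd45a* and *Insm2* were highest. Of the last bin 82.8% was in the ganglion cell lineage, and there *Mybl1* was at 3.42 CPM.

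**Figure D5:**
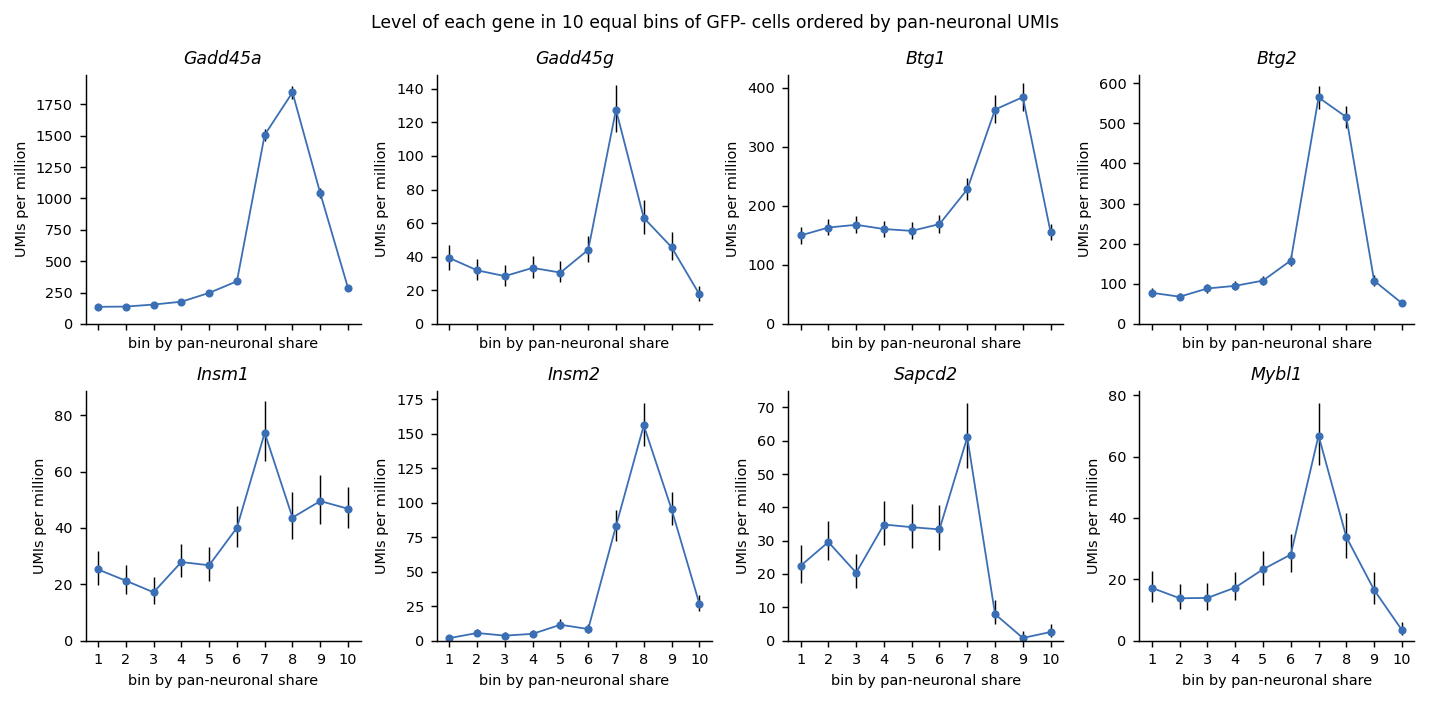
CPM of each gene in 10 bins of GFP− cells ordered by the share of UMIs from 10 pan-neuronal genes, lowest share first, with exact 95% Poisson intervals; the axis differs between genes. Of the 8 genes 5 are highest in bin 7, *Gadd45a* and *Insm2* in bin 8 and *Btg1* in bin 9.

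The GFP+ photoreceptor class was likewise divided into 5 bins of 720 cells by cone genes, a division chosen after the data were seen. From the first to the last bin *Gadd45a* went from 152 to 65.0 CPM, *Gadd45g* from 93.5 to 53.7, *Btg2* from 696 to 533, *Insm2* from 37.8 to 17.3 and *Mybl1* from 14.3 to 2.26 CPM. *Btg1* went from 666 to 480 CPM, with its lowest value, 463 CPM, in the fourth bin. *Insm1* was highest in the third bin, at 137 CPM, with 133 in the first and 106 in the last. The median depth went from 4664.5 to 3603.5 UMIs per cell over the same bins, and its part in these values was not tested.

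The number of the 8 genes found in a cell was counted by stage. For neurogenic cells against progenitors this restates the levels by which the genes are treated as chosen, so nothing is read from it. At equal depth the median cell had UMIs of 1 of the 8 in both progenitor stages, 2 in neurogenic cells in S and 3 in neurogenic cells in G2/M, in those without cycle UMIs, in the early ganglion cell lineage and in the GFP− photoreceptor lineage. At least 4 were found in 32.4% of neurogenic cells in G2/M and 30.4% without cycle UMIs, against 0.366% of progenitors in S and 2.55% of late ganglion cell lineage cells. Among 634 neurogenic cells, *Gadd45a* was found in 87.9% of the 405 cells with *Btg2* and 48.9% of the 229 without. *Mybl1* was found in 27.9% of cells with *Btg2* and 4.37% of those without, and *Btg2* in 91.9% (85.6 to 96.0) of the 123 cells with *Mybl1* and 57.1% of the others. *Insm2* was in 10.5% of cells with *Gadd45a* and 0.602% of those without. The 2 Insm genes differed from this, since *Insm1* was in 2 of the 50 cells with *Insm2* (0.488% to 13.7%) and 21.7% (18.5 to 25.3) of the others. *Insm2* was in 1.90% of cells with *Gadd45g* and 9.87% of those without. As the neurogenic cells hold 3 stages with unlike levels, the same shares were taken within the 401 cells in G2/M. There *Gadd45a* was in 90.2% of cells with *Btg2* and 53.2% of those without, *Mybl1* in 29.8% and 4.76%, and *Insm1* in 2.70% (0.0684 to 14.2) of the 37 cells with *Insm2* and 25.0% of the others. *Insm2* was in 3.41% (0.709 to 9.64) of cells with *Gadd45g* and 10.9% (7.64 to 14.8) of those without, with intervals that overlap.

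Across the 9 stages the course of each gene was set beside those of 4123 genes with at least 50 CPM in a stage, as Pearson's r of log2(CPM + 10) over 9 points that share 1 library. Between members, the highest r was 0.943 for *Mybl1* and *Btg2*, and the lowest −0.08 for *Sapcd2* and *Btg1*. The 3 genes nearest to *Gadd45a* were *Bcl7a* (0.990), *Srrm4* (0.971) and *Rcor2* (0.963), and those nearest to *Gadd45g* were *Dll1* (0.975), *Hes6* (0.946) and *Mybl1* (0.918), the first a Notch ligand. *Btg2* was nearest to *Pkib* (0.972), *Igsf8* (0.968) and *Chd7* (0.967), and *Btg1* to *Clk4* (0.949), *Zcchc9* (0.948) and *Dld* (0.947). *Insm1* was nearest to *Wbp4* (0.904), *Neurod1* (0.886) and *Fgd4* (0.881), and *Insm2* to *Rab15* (0.958), *Lancl1* (0.954) and *Dlx2* (0.953). *Sapcd2* was nearest to the mitotic genes *Kif20a* (0.982), *Kif23* (0.981) and *Cks2* (0.980), and *Mybl1* to the Notch effector *Rbpj* (0.974), *Penk* (0.953) and the Notch ligand *Dll4* (0.949).

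Other genes of the same pathways were read from lists that were chosen with earlier results of these data known, so their counts are not independent evidence. Calls and ratios of list genes, here and in the next paragraph, use CPM and were not remade with TMM factors. The TMM shares of all genes are thus not on the scale of these counts. Of 13 neurogenic companions, which are Notch ligands, proneural targets and early neuronal regulators, all 13 tested were called higher in neurogenic cells over progenitors, beside 2.95% of all genes. Among them were *Neurod1* (65.1), *Dll4* (43.3), *Srrm4* (23.4), *Dll1* (13.8), *Hes6* (9.98) and *Rcor2* (3.14). Without over with cycle UMIs 6 of the 13 were called higher and 0 lower, beside 7.07% and 8.35% of all genes (4.61% and 10.7% with TMM factors). In the ganglion cell lineage over neurogenic cells 1 was called higher and 6 lower, beside 12.6% and 11.3% of all genes. In the amacrine and horizontal lineage 3 were called higher and 6 lower, beside 16.5% and 11.5% of all genes (12.6% and 14.2% with TMM factors). In the GFP− photoreceptor lineage 4 were called higher and 1 lower, beside 12.3% and 7.47% (8.15% and 10.8% with TMM factors). Of the 8 listed relatives of the 8 genes (*Gadd45b*, *Btg3*, *Btg4*, *Tob1*, *Tob2*, *Myb*, *Mybl2*, *Sapcd1*) 5 passed the limit of 10 CPM and 0 were called in neurogenic cells over progenitors, beside 2.95% of all genes higher and 2.34% lower. *Gadd45b* had 12 and 28 UMIs in these 2 classes. GFP+ over GFP−, with 5 relatives tested, *Tob2* was called higher (4.25) and *Myb* (0.0948), *Mybl2* (0.117) and *Sapcd1* (0.0536) lower. Of all genes 20.9% were called higher and 10.3% lower there (13.0% and 15.6% with TMM factors). Without over with cycle UMIs 0 of 5 relatives tested were called higher and 3 lower, beside 7.07% and 8.35% of all genes (4.61% and 10.7% with TMM factors).

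The 7 partners (*Cnot7* and *Cnot8* of the deadenylase, *Gadd45gip1*, *Ppm1d*, *Hdac1*, *Kdm1a* and *Rcor1*) were tested in each comparison, and 0 were called in neurogenic cells over progenitors or in the 3 lineages. *Ppm1d* was called higher in GFP+ cells (4.04), beside 20.9% of all genes (13.0% with TMM factors). *Gadd45gip1* was called higher in neurogenic cells without cycle UMIs (2.44), beside 7.07% of all genes (4.61% with TMM factors). Of p53 targets, among which *Gadd45a*, *Btg2* and *Cdkn1a* are known, 6 of the 10 listed were tested in neurogenic cells over progenitors and 1 was called higher, *Cdkn1a* (3.16), beside 2.95% of all genes. In the gates, where 20.9% of all genes were called higher (13.0% with TMM factors), 4 of 9 were by CPM, namely *Sesn2* (5.98), *Trp53inp1* (5.01), *Ccng1* (2.63) and *Zmat3* (2.16), and 0 lower. *Sesn2* is also 1 of the 8 ATF4 targets used below, which stood at 299 CPM in the GFP+ and 99.3 CPM in the GFP− library. Of the cycle exit list of cyclins, inhibitors and pocket proteins 10 of 11 were tested in neurogenic cells over progenitors, with *Ccnd2* (0.353) called lower and 0 higher, beside 2.34% and 2.95% of all genes. Without over with cycle UMIs, of 10 tested, the inhibitor *Cdkn1c* was called higher (4.14) and 4 were called lower, among them *Ccnd1* (0.292). Of all genes 7.07% were called higher and 8.35% lower there (4.61% and 10.7% with TMM factors). *Cdkn1c* was also called higher in the amacrine and horizontal lineage (10.1), where 5 of the 10 tested were called lower. Of all genes 16.5% were called higher and 11.5% lower there (12.6% and 14.2% with TMM factors).

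*Gadd45a*, *Gadd45g*, *Btg1* and *Btg2* can respond to stress and to dissociation, so they were set beside 8 immediate early genes and 8 ATF4 targets. Cells with 3 or more immediate early UMIs made up 39.7% of GFP+ and 48.1% of GFP− cells, without thinning and with GFP− cells deeper. Scaled to total UMIs the list was higher in the GFP+ library, at 604 CPM against 386 CPM in the GFP− library. Among neurogenic cells the 271 with 3 or more immediate early UMIs had 1025 CPM of *Gadd45a* against 1365 in the 370 with fewer (0.751, 0.715 to 0.789), 390 against 550 CPM of *Btg2* and 30.8 against 55.4 CPM of *Insm2*. The 271 cells had a median of 8996 UMIs, against 7919. Of neurogenic cells in S 41.8% had 3 or more, of those in G2/M 44.2% and of those without cycle UMIs 33.75%. The part of depth and stage in these values was not tested. In progenitors the cells with 3 or more were higher in *Gadd45g*, at 12.4 against 3.65 CPM (3.40, 2.07 to 5.85), and in *Btg2*, at 35.9 against 20.6 CPM (1.74, 1.39 to 2.20). In the GFP+ photoreceptor class *Gadd45g* was at 91.8 against 58.4 CPM and *Gadd45a* at 109 against 78.5 CPM. In the late ganglion cell lineage *Insm1* was at 51.9 against 19.9 CPM (2.60, 1.62 to 4.35). With 3 or more ATF4 target UMIs, 44 neurogenic cells had 389 CPM of *Gadd45a* against 1280 CPM in the other 597 and 9.38 against 47.2 CPM of *Insm2*. Of the 44 cells 12 were in S, 32 in G2/M and 0 without cycle UMIs, the neurogenic stage with the highest level of both genes. The part of stage in these values was not tested. In the GFP+ photoreceptor class the 411 cells with 3 or more ATF4 target UMIs had more *Insm1*, 196 against 115 CPM (1.70, 1.51 to 1.91). They had less *Btg2*, 497 against 627 CPM, and less *Btg1*, 463 against 539 CPM. Without all cells that had 3 or more immediate early UMIs, the log2 ratio of neurogenic cells over progenitors was 4.79 for *Gadd45a* (4.53 with them), 5.29 for *Gadd45g* (4.03) and 4.74 for *Btg2* (4.04). In the gates the same 6 genes were called without these cells, with log2 ratios of −2.93 for *Gadd45a* (−2.44 with them) and 0.36 for *Gadd45g* (0.75). In progenitors, G2/M over S, the log2 ratio of *Gadd45g* was −1.42 in place of 0.22, and it was not called in either. Calls gained without these cells were *Gadd45g* higher in neurogenic cells without cycle UMIs, and *Insm1* lower in the ganglion cell lineage (−1.39 against −0.71) and in the amacrine and horizontal lineage, and 0 calls were lost in the 7 comparisons.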

How the data were processed

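Both libraries were made from live sorted cells with the 10X Chromium 3′ kit (version 2 chemistry), and the authors deposited filtered matrices of raw UMI counts from Cell Ranger 2.1.1 on mm10 (GRCm38), without normalization. All columns of both matrices were used (0 left out). The limits on cells were 250 to 3500 genes and mitochondrial reads below a fraction of 0.25, and the upper limit of genes removed 39 GFP+ and 1055 GFP− cells. With an expected rate of 0.03 and before these limits, Scrublet (scanpy 1.11.5) called 3 GFP+ (0.0805%) and 55 GFP− cells (1.24%) doublets. After the limits the GFP+ library still held 2 such calls, which stayed in, and the GFP− library held 0. Whether the caller worked in the GFP+ library, where its share was low, was not tested.

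Summed UMIs of a class were divided by their total, with exact Poisson intervals for levels, exact conditional binomial intervals for ratios and exact Clopper-Pearson intervals for shares, all at 95%. A gene at 0 is bounded by 3 counts. The calculation of intervals and calls was tried on simulated independent Poisson counts. These follow the model that the intervals assume, so they do not show how the intervals hold for unlike cells. The software was scipy 1.17.1, pandas 2.3.3 and numpy 2.4.6 in Python 3.11.15, with TMM factors from edgeR 4.0.16. The 8 genes, the marker and pathway lists and the comparisons were chosen with earlier results of these data known. One gene of the progenitor list is not reported here by name but was counted in it. Named are the 8 genes, called members of the lists and, for each gene, the 3 with the nearest course over the stages.

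Alternatives were no upper limit on genes, a mitochondrial limit of 0.1, TMM factors, means of per-cell CPM, thinned cells, doublets or cells with 3 or more immediate early UMIs left out, no limit of 10 CPM, a fold of 1.5, markers at 1 or 3 UMIs and cycle UMIs at 3 or 10. Chosen after seeing the data were classes made from thinned counts, shared barcodes left out, lineage cells with 2 or more neurogenic UMIs or with cycle UMIs left out, the division of lineage classes by these UMIs, and the bins of GFP+ cells.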

Additional observations from a re-analysis of the deposited data

Results flagged for a closer look

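Cells in no stage comparison also held UMIs of the 8 genes, above the limit that a count of 0 allows except for *Sapcd2* and *Mybl1* in the last group, which shows only that they were detected. The 1055 GFP− cells with 3500 or more genes (median 14919 UMIs), of which 42.7% were late ganglion cell lineage cells and 25.6% progenitors in G2/M by the same markers, had 208 CPM of *Gadd45a*, 17.6 of *Gadd45g*, 124 of *Btg1*, 59.7 of *Btg2*, 24.2 of *Insm1*, 15.8 of *Insm2*, 37.8 of *Sapcd2* and 9.05 of *Mybl1*. The 328 kept GFP− cells in no stage had 129 CPM of *Gadd45a*, 23.7 of *Gadd45g*, 177 of *Btg1*, 55.4 of *Btg2*, 21.8 of *Insm1*, 6.59 of *Insm2*, 26.7 of *Sapcd2* and 9.89 of *Mybl1*. The 31 kept GFP− cells with markers of more than 1 lineage had 1327 CPM of *Gadd45a*, 25.0 of *Gadd45g*, 316 of *Btg1*, 349 of *Btg2*, 33.3 of *Insm1* and 58.2 of *Insm2*, with 3 UMIs of *Mybl1* and 0 of *Sapcd2*.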

How the results depend on the processing

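The number of the 8 genes past the fold limit moved by no more than 1.5 times in 101 of 109 recomputed counts. In progenitors, G2/M over S, it was 2 in place of 1 with cells classed after thinning. For neurogenic cells without over with cycle UMIs it was 2, and became 6 at a fold of 1.5, 1 with cycle UMIs at 10 or more and 1 with cells classed after thinning. For the photoreceptor lineage it was 2, and became 4 at a fold of 1.5, 0 with markers at 1 or more UMIs, 5 with cells classed after thinning and 5 without the lineage cells that had 2 or more neurogenic UMIs. Of the called ratios, 2 changed sign, *Insm2* in the ganglion cell lineage without cells that had 2 or more neurogenic UMIs (log2 −0.41) and *Sapcd2* in the photoreceptor lineage with markers at 1 or more UMIs (0.14). Ratios that were not called changed sign in 25 further cases, among them *Gadd45a* in the amacrine and horizontal (0.11) and photoreceptor (0.25) lineages with markers at 1 or more UMIs and *Insm1* in the photoreceptor lineage in 4 of 16 alternatives. The 109 counts and 754 log2 ratios include those with doublets left out. That took away 0 kept GFP− cells, so no value of a comparison within GFP− cells could move. Of 754 recomputed log2 ratios 578 stayed within their counting interval. Of the shares of cells with a UMI, 66 of 72 moved outside theirs after thinning, and the highest CPM of 8 of 8 genes was outside its interval in pan-neuronal bins. Thinning can only lower the count of a gene in a cell, and the bins mix stages, so nothing is read from either count. In the gates all 8 genes kept their sign in 8 of 8 alternatives, and *Gadd45g* was called higher without the upper limit on genes (ratio 2.13). In neurogenic cells over progenitors *Sapcd2* was not called without that limit (1.67) or with markers at 1 or more UMIs. Apart from what the alternatives change in the cells used, the cause was not tested. No paired analysis was possible because each gate has 1 library. Depth limits *Sapcd2*, with 12 UMIs in the kept GFP+ cells and 4 in progenitors in S, and *Insm2*, with 13 UMIs in progenitors.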
